A study of Homo sapiens with 3 samples.

Results

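CDKN1A encodes p21, a small protein that binds cyclin-dependent kinases (CDKs) and can halt the cell cycle. It was followed in L428tetPU.1 cells under tetracycline (day 0) and 1 and 3 days after its removal. The gene was taken as every probe annotated to CDKN1A, which gave 2 of the 24303 named probes, or 1 of 19367 named genes. L428 is an established line of classical Hodgkin lymphoma, and L428tetPU.1 is the derivative that turns on PU.1 (gene SPI1), an ETS transcription factor of blood cells, once tetracycline at 500 ng/ml is withdrawn. All 3 groups carry the same construct, so day 0 is the cells under tetracycline and not the parent line. The sources used here do not say how many clones the derivative comes from. Total RNA was read on 3 Illumina bead arrays of 48701 probes, 1 array per day. The design text speaks of 4 experiments per RNA sample, yet each day has 1 column of values. No value below therefore has a replicate error and no test between days was possible.

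p21 belongs to the Cip/Kip family with p27 (CDKN1B) and p57 (CDKN1C), which bind complexes of cyclins A, D and E with their kinases. The INK4 family, p16 (CDKN2A), p15 (CDKN2B), p18 (CDKN2C) and p19 (CDKN2D), binds CDK4 and CDK6 alone. With CDKs inhibited, RB1 and its relatives stay unphosphorylated, and E2F and DREAM target genes of DNA synthesis and mitosis are repressed. CDKN1A is switched on by DNA damage and during differentiation, in the second case by factors such as Sp1, EGR1, the retinoic acid and vitamin D receptors and KLF proteins. p21 also binds PCNA, the sliding clamp of DNA polymerases.

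ETS factors such as PU.1 bind DNA around the letters GGAA. The promoter of CDKN1A is therefore shown, as the 250 bases before the transcription start in RefSeq (GRCh38.p14, chr6:36678464-36678713, plus strand), with GGAA on either strand in capitals.
CDKN1A promoter: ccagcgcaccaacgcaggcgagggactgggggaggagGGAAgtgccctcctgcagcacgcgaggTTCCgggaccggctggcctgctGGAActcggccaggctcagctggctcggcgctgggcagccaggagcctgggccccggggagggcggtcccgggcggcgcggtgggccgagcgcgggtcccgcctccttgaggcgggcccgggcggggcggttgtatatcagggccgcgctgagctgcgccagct
GGAA occurred at 3 places, beginning 213, 186 and 164 bases before the start, the one at 186 on the minus strand. Of 35116 RefSeq promoters of that length 92.7% hold at least 1 GGAA on either strand and 55.1% hold 3 or more. The longer core GAGGAA, the PU box, which contains GGAA, was not in this window on either strand, and 23.6% of the promoters hold it. GGGCGG, the GC box that Sp1 reads, occurred 4 times on the plus strand, beginning 104, 94, 45 and 40 bases before the start, the last 2 sharing 1 base. At least 1 GC box on either strand was in 42.6% of the promoters and 4 or more were in 7.63%. The window was 76.4% G and C, against a median of 58.0% over all promoters. TATAAA was absent from it on both strands, and 10.7% of promoters hold it. These are matches of letters in a short window and not sites of binding.

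The brighter CDKN1A probe (ILMN_1784602) had a deposited intensity of 226.5 at day 0, 6394.6 at day 1 and 4904.3 at day 3. Each of these was above background, with a deposited detection p-value of 0, and the lowest intensities above background on the same arrays were 70.4, 64.5 and 67.0. The transcript was thus already detected under tetracycline, and day 1 was the highest of the 3 days. On the normalized log2 scale (background corrected, quantile normalized) the probe stood at 7.63, 12.70 and 12.27. CDKN1A rose by 5.06 log2, or 33.4-fold, at day 1 against day 0, and by 4.64 log2, or 24.9-fold, at day 3 against day 0. A gene was called higher or lower here when it changed by at least 2-fold, the size rule used in place of a test. The error of a change, taken as the SD between probes of 1 gene over 416 genes for which 2 probes were detected on every array, was 0.36 log2 at day 1 and 0.29 at day 3. It does not cover variation from culture to culture or from one RNA preparation to the next. The plain ratios of the deposited intensities were 28.2 for day 1 over day 0 and 21.7 for day 3 over day 0.

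**Figure D1:**
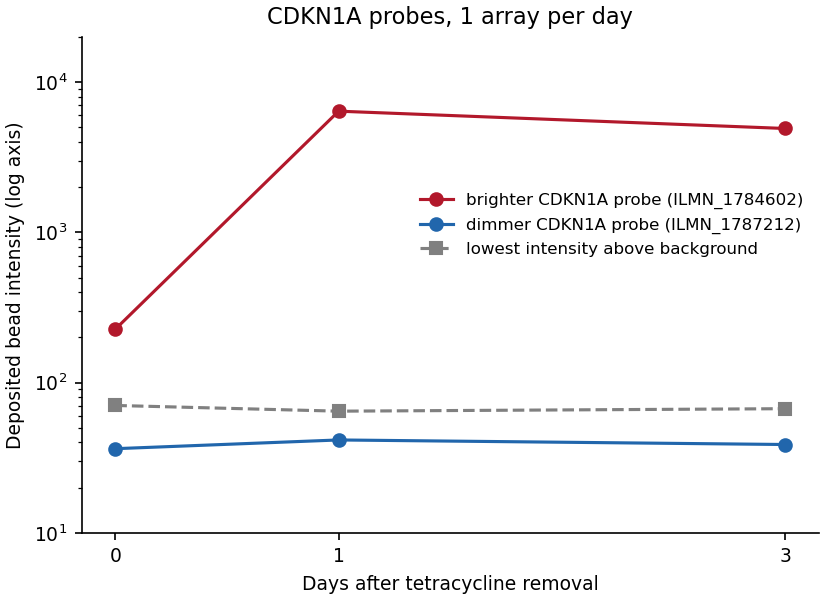
Deposited bead intensity (log axis) of the 2 CDKN1A probes against days after tetracycline removal, with the lowest intensity above background on each array as grey squares, 1 array per day. The brighter probe stands at 226.5, 6394.6 and 4904.3, while the dimmer one lies between 36.3 and 41.5, under the grey line on all 3 arrays.

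From day 1 to day 3 CDKN1A differed by -0.42 log2, which did not pass the size rule. That difference was somewhat larger than the probe error of 0.31 log2 and stood 6827th of 8489 genes above background on both arrays. YIPF1, TPP2, DDX39A and IGDCC4, the genes next to it in that order, all differed by between -0.42 and -0.43. Of the 8489 genes, 39.7% differed by at least as much in either direction.

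The second CDKN1A probe (ILMN_1787212) did not exceed background at any time. It read 36.3 (day 0), 41.5 (day 1) and 38.7 (day 3), and its detection p-values were 0.247, 0.108 and 0.193. It was highest at day 1, as was the brighter probe, but no fold is given for values below background. Both probes carry the same RefSeq accession (NM_078467.1) in the platform annotation, and the part of the transcript each one reads was not analysed here. The whole rise of CDKN1A therefore rests on 1 probe. Averaged over both probes, an alternative chosen after seeing the data, the change was 2.62 log2 at day 1 and 2.35 at day 3. That mean cannot test the rise, since the dimmer probe was below background and only lowers the value. A silent second probe was common on these arrays. Of 832 genes with 2 named probes whose brighter probe was above background on all arrays, 555, or 66.7%, had the other probe above background on none, and 213 had both above background on all. Pairs of any brightness were counted, some with a different accession for each probe, so that share was not matched to CDKN1A. Among the 832, only CDKN1A and MUC1 had a brighter probe at least 8-fold higher at day 1, and the other probe of MUC1 was above background on no array either.

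At day 1 CDKN1A had the third highest change of the 8198 genes that were detected at day 1 and at day 0. SIRPA, an inhibitory receptor of myeloid cells, was first at 5.81 log2 and PLEK, a protein kinase C substrate of leukocytes, second at 5.13, while CD68 at 4.94 and PRG2 at 4.93 came next below. The distance from CDKN1A to PLEK, CD68 or PRG2 was less than the probe error of 0.36 log2. Genes below background at day 0 are outside this order, and such a gene can show a larger change than CDKN1A. ARHGAP9 did so at 5.54 log2, a size that rests on a day 0 value below background. At day 3 CDKN1A was second of 8312 genes, between the chemokine gene CCL22 at 4.77 and SIRPA at 4.64, followed by the interferon-induced gene IFI44L at 4.22. CCL22 and SIRPA lay within the probe error of 0.29 log2 of it. Over all genes measured, 17.2% passed the size rule at day 1 (9.19% rose and 7.98% fell) and 7.08% at day 3 (4.95% rose and 2.13% fell). Both comparisons share the day 0 array.

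**Figure D2:**
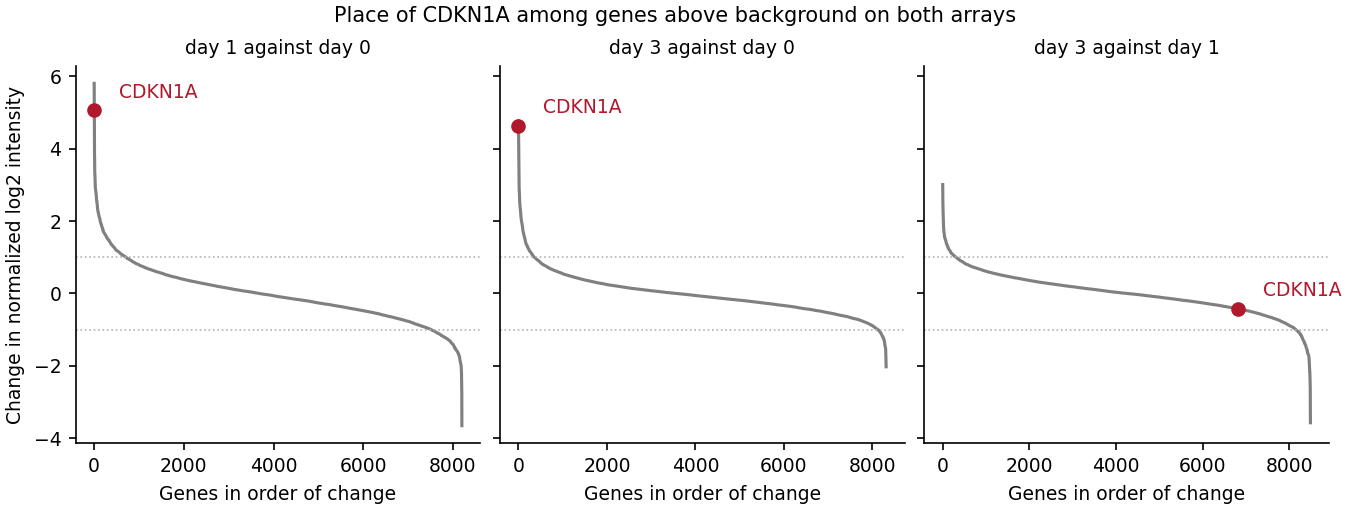
Change in normalized log2 intensity (y axis) of genes above background on both arrays, ordered from the highest to the lowest (x axis), in the 3 comparisons; dotted lines mark 2-fold. CDKN1A (red) is 3rd of 8198 at day 1 against day 0, 2nd of 8312 at day 3 against day 0, and 6827th of 8489 at day 3 against day 1.

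Of 7 genes in the 2 families, 6 had a named probe, and CDKN2C was not analysed here. CDKN1A, CDKN1B, CDKN2A and CDKN2D were measured, meaning detected on 1 or both of the arrays compared, and CDKN1A was the 1 that passed the size rule at day 1 and at day 3. The other 3 measured genes differed at day 1 by -0.38 log2 (CDKN1B), -0.37 (CDKN2A) and 0.87 (CDKN2D), so they did not share a direction. Their median, -0.37 at day 1 and -0.14 at day 3, is on each day the value of 1 gene. Over all genes measured the median was -0.05 and -0.06. No CDK inhibitor gene passed the rule at day 3 against day 1, where 7.46% of all genes measured did (3.54% rose and 3.92% fell).

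CDKN1B, whose product p27 restrains cyclin E with CDK2, had intensities of 312.1 at day 0, 220.3 at day 1 and 262.2 at day 3. It was lowest at day 1, the day on which CDKN1A was highest, and its changes against day 0 were -0.38 log2 at day 1 and -0.14 at day 3. The day 1 value is close to the probe error of 0.36. CDKN1C was not above background, with 36.8, 34.5 and 34.9 at the 3 days.

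CDKN2D, the p19 gene of the INK4 family, had intensities of 322.8 at day 0, 510.3 at day 1 and 425.6 at day 3 on its brighter probe. It followed the order of days of CDKN1A at a far smaller size, with changes of 0.87 log2 at day 1 and 0.56 at day 3, short of 2-fold. Its second probe was below background at 29.9, 30.7 and 29.6, the same split between probes as in CDKN1A. CDKN2A, which encodes p16 and, in another reading frame, p14ARF, had 3 probes. The brightest, which carries the accession NM_058195.2, lay just above background at 85.3, 68.6 and 78.9, and differed by -0.37 log2 at day 1 and -0.16 at day 3. A further probe reached 67.3 at day 3 and was above background on that array alone, and the last lay between 27.9 and 31.7. Which product each probe reads was not analysed here, so CDKN2A counts as measured without showing p16. The CDKN2B probes were below background throughout, between 28.3 and 39.8.

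**Figure D3:**
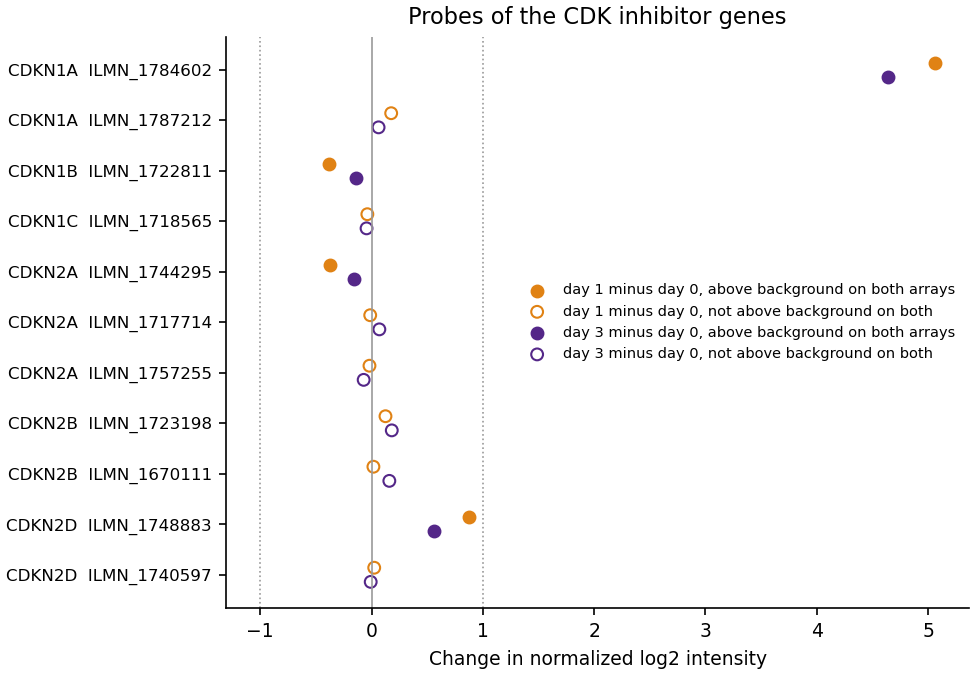
Change in normalized log2 intensity (x axis) of each of the 11 probes of CDK inhibitor genes (rows) at day 1 (orange) and day 3 (purple) against day 0, filled where the probe was above background on both arrays; dotted lines mark 2-fold. The brighter CDKN1A probe lies at 5.06 and 4.64, and every other probe lies between -0.38 and 0.87.

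The cyclins and kinases that p21 binds did not move as one. Of 14 genes of this list 12 were measured at day 1, where 2 (16.7%) rose and 3 (25%) fell, beside 9.19% and 7.98% of all genes measured. The median was -0.49 log2, against -0.05 over all genes. CCNA2, the cyclin of S phase and G2, had intensities of 987.7 at day 0, 312.8 at day 1 and 623.0 at day 3, and fell by 1.52 at day 1. CCND1 and CCNE1, G1 cyclins, fell by 1.43 and 1.11, while CCND2 rose by 1.16 and CCND3 by 1.36. The second CCNE1 probe was not above background, and the call of CCNE1 ended with an offset of 50, at -0.94. No kinase gene passed the rule on its brightest probe. CDK2, the main kinase held by p21, differed by 0.50 and had a second probe at 0.76, CDK4 differed by -0.32 and CDK6 by -0.42. CDK1, the mitotic kinase, differed by -0.65 on its brighter probe and by -1.09 on the other.

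At day 3 none of 13 measured genes of the list passed the rule against day 0 and the median was -0.16. In arrays scaled to their 75th percentile 1 gene fell. CCNA2 differed by -0.49, CCND1 by -0.88, CCNE1 by -0.90 and CCND2 by 0.93. From day 1 to day 3 CCNA2 rose by 1.03, a call that ended in 4 alternatives at 0.95 to 0.99, and CCND3 fell by 1.44. CDKN1A, which also had its peak at day 1, differed by -0.42 over the same days. PCNA had intensities of 6566.2, 4027.5 and 5382.4 at day 0, day 1 and day 3. It was lowest at day 1, with changes against day 0 of -0.56 at day 1 and -0.16 at day 3, and its other probes were below background.

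Genes that act on CDKs gave 1 rise at day 1 (12.5%, beside 9.19% of all genes measured) and no fall. CCNH, the cyclin of the CDK-activating kinase, rose by 1.35 at day 1, when 8 of 8 genes were measured and the median was 0.09, and differed by 0.36 at day 3. CDC25B, a phosphatase that activates CDKs, had intensities of 1639.0, 2591.1 and 1172.9 at the 3 days and fell by 1.15 from day 1 to day 3. It was the 1 call of the list in that comparison (12.5% lower, beside 3.92% of all genes measured).

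The pocket proteins and the DREAM complex, through which CDK inhibition reaches transcription, gave 1 call. Of 13 genes 11 were measured and 0 rose. At day 1 TFDP1, the partner of E2F proteins, fell by 1.08, which is 1 gene (9.09%) beside 7.98% of all genes measured. The medians were -0.08 at day 1 and -0.03 at day 3, against -0.05 and -0.06 over all genes measured. RB1, the retinoblastoma gene, had intensities of 87.3 at day 0, 127.8 at day 1 and 149.3 at day 3, and its changes of 0.71 and 0.93 did not reach 2-fold. RBL2, the pocket protein of DREAM, differed by 0.10 and -0.03.

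DREAM target genes, which p21 is known to repress through these proteins, gave calls at day 1 in shares of 4.17% higher and 6.25% lower, beside 9.19% and 7.98% of all genes measured. Of 51 genes 48 were measured, and 2 rose and 3 fell with a median of -0.24 log2, against -0.05 over all genes measured. At day 3 none rose, 1 (2.08%, beside 2.13% of all genes) fell and the median was -0.29, against -0.06. CCNA2, the mitotic checkpoint gene MAD2L1 by 1.16 and the survivin gene BIRC5 by 1.15 fell at day 1. MCM5, a subunit of the replicative helicase, and CENPE, a mitotic kinesin, rose by 1.35 and 1.15. CCNB1, the mitotic cyclin, was just short of the rule with -0.999. At day 3 CDC20, an activator of the anaphase-promoting complex, stood at 1814.9, against 4125.4 at day 0, and fell by 1.02. By the authors' deposited table, 1 DREAM target was at least 2-fold higher and 5 were lower at day 1, and with arrays scaled to their 75th percentile 6 fell at day 1 and 3 at day 3. The BIRC5 call ended in 3 alternatives, at -0.83 to -0.997, and the CENPE call in the authors' deposited table, at 0.98.

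**Figure D4:**
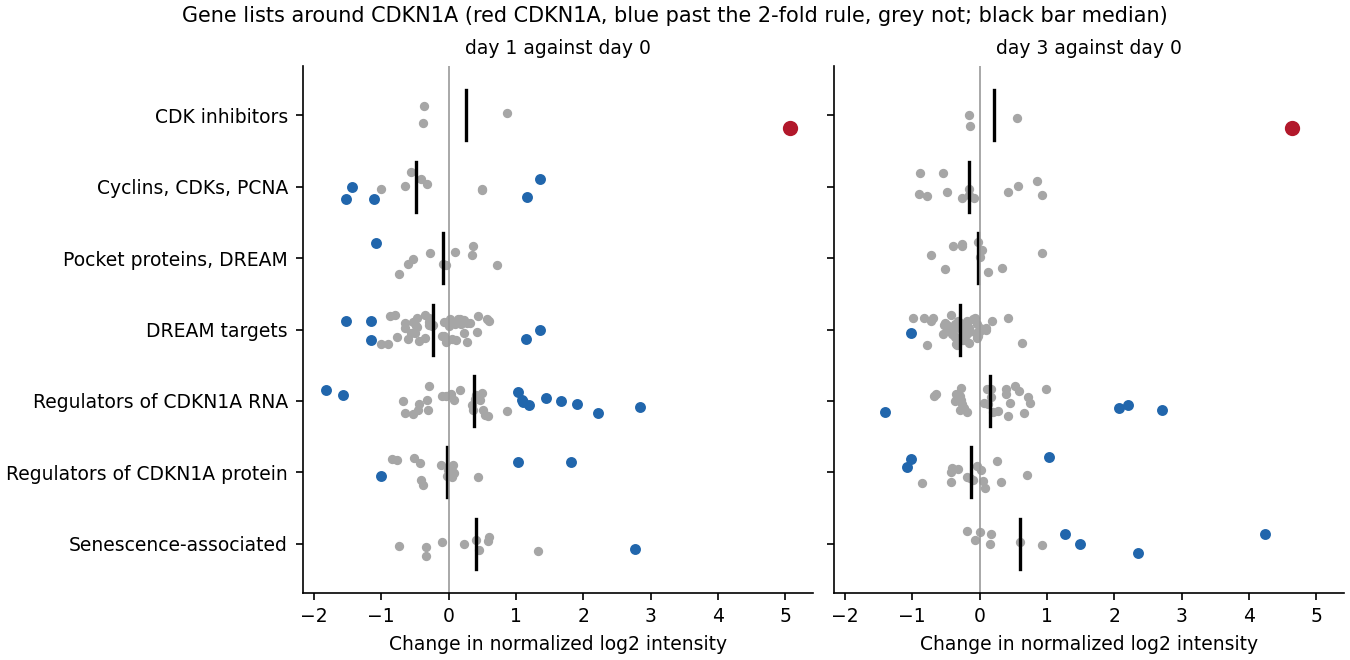
Change in normalized log2 intensity (x axis) of the measured genes of 7 lists (rows) at day 1 (left) and day 3 (right) against day 0; each point is a gene, red for CDKN1A, blue for other genes past the size rule and grey for the rest, black bars are medians, and heights within a row are jittered. CDKN1A lies at 5.06 and 4.64, beyond every other point in both panels.

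Of 47 known regulators of CDKN1A transcription 34 were measured at day 1 and at day 3. The list mixes activators and repressors of CDKN1A, so a share of rises carries no direction for that gene. At day 1, 9 (26.5%) rose and 2 (5.88%) fell, beside 9.19% and 7.98% of all genes measured, with a median of 0.38 against -0.05. At day 3, 3 (8.82%) rose and 1 (2.94%) fell, beside 4.95% and 2.13% of all genes, with a median of 0.15 against -0.06. With arrays scaled to their 75th percentile, and in the authors' deposited table, 6 rose at day 1. The day 3 median was then 0.01, which is 0.21 and 0.20 above the median of all detected genes in the same values, against 0.23 with quantile scaling. SPI1, the induced gene, was not above background on its 1 named probe, at 40.8, 35.3 and 38.9, so these arrays do not show its induction. Whether that probe reads the introduced copy was not tested. MXD1, an antagonist of MYC at its target sites, had intensities of 102.6 at day 0, 586.3 at day 1 and 392.8 at day 3, and rose by 2.84 log2 and 2.21. Its order of days is that of CDKN1A. MYC, which represses CDKN1A, had 1103.8, 612.0 and 813.8, lowest at day 1, and differed by -0.64 and -0.24, short of 2-fold. EGR1, an activator of CDKN1A in differentiating cells, rose by 1.45 and 2.07, with 121.0, 281.9 and 430.9. PRDM1, the Blimp-1 gene of plasma cells, rose by 1.91 and 2.71 on its brighter probe, and its second probe differed by 0.50 and 0.02.

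TFAP2A, a factor reported to activate CDKN1A, fell by 1.82 at day 1 and 1.41 at day 3, with 478.6, 133.0 and 176.1. STAT5B, the other regulator that fell at day 1, had intensities of 478.9 at day 0, 155.2 at day 1 and 578.7 at day 3. It fell by 1.57 at day 1, differed by 0.46 at day 3 and rose by 2.03 from day 1 to day 3. RARA, a retinoic acid receptor, had intensities of 150.2 at day 0, 576.9 at day 1 and 183.2 at day 3, rising by 2.21 at day 1 and falling by 1.82 from day 1 to day 3. VDR, the vitamin D receptor, had 76.3, 195.2 and 66.2, rose by 1.66 at day 1 and was at least 3.79-fold lower at day 3 against day 1. Here and below "at least" marks a gene below background on 1 of the 2 arrays, where the lowest signal above background takes its place. The further probes of RARA and VDR were below background. RXRA, their partner, rose by 1.11 at day 1 and differed by 0.19 at day 3, and SP1 rose by 1.19 and differed by 0.53. The RXRA call ended in the authors' deposited table, at 0.94, and with arrays scaled to their 75th percentile, at 0.95. The calls of BCL6, lost in 4 alternatives at 0.85 to 0.97, and IRF1, lost in 3 at 0.92 to 0.99, ended under the same 2 settings. At day 3 RARA was near its day 0 intensity and VDR was below background. Whether either receptor, MYC or any other regulator named here acts on CDKN1A in these cells was not tested.

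Of 19 genes that act on p21 after translation 17 were measured at day 1, with 2 (11.8%) higher, 1 (5.88%) lower and a median of -0.02, near the shares of all genes measured, 9.19% and 7.98%. At day 3, 18 were measured, with 1 (5.56%) higher, 2 (11.1%) lower and a median of -0.12, beside 4.95% and 2.13% of all genes. SKP2, the F-box protein that sends p21 and p27 to the proteasome, had intensities of 1653.0 at day 0, 728.1 at day 1 and 702.2 at day 3. It fell by 1.01 at day 1 and 1.08 at day 3, and its second detected probe gave -1.01 and -1.36. The day 1 call ended without background correction, at -0.99, and with an offset of 50, at -0.98. PIM2, a kinase gene, rose by 1.82 at day 1 and 1.03 at day 3, and the day 3 call was lost in 4 alternatives at 0.79 to 0.98. TRIM39, a ubiquitin ligase gene, rose by 1.04 at day 1, a call lost in 4 alternatives at 0.87 to 0.97. CDC20, described with the DREAM targets, is also on this list.

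Of 22 genes tied to senescence and its secretome 21 had a named probe, and 11 were measured at day 1 and at day 3. At day 1 these 11 gave 1 rise (9.09%, beside 9.19% of all genes) and no fall. At day 3 they gave 4 rises (36.4%, beside 4.95%) and no fall, with a median of 0.60 against -0.06 over all genes. With no detection filter that median was 0.02. Among the genes that rose, IL1A and IL1B were below background at day 0 and entered the share only through the day 3 array. IL1A had intensities of 40.9 at day 0, 194.2 at day 1 and 511.7 at day 3, and was at least 3.48-fold higher at day 1 and at least 9.60-fold higher at day 3. IL1B was at least 2.61-fold higher at day 3, a call lost with an offset of 50, IL6 rose by 1.49 and CCL20 by 1.27. These 4 cytokine genes had their highest intensity at day 3, unlike CDKN1A. All 4 are also induced by NF-kB. LMNB1, which falls in senescent cells, differed by -0.33 at day 1 and -0.18 at day 3.

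The genes nearest to CDKN1A in pattern were sought among 8090 genes above background on all 3 arrays, by the Euclidean distance over their changes of day 1 and day 3 against day 0. PLEK was nearest at a distance of 0.56 log2, with intensities of 104.0 at day 0, 2890.0 at day 1 and 1398.6 at day 3. SIRPA followed at 0.74, with 71.2, 2920.5 and 1303.7. Those 2 genes lay within a distance of 1, and the median over all genes was 6.98. The distance includes the size of the rise, so it favours genes with large rises and sets genes that changed little far away. LAMP3, a gene of mature dendritic cells, was at 1.11, with 126.1, 1886.6 and 1553.8, and DUSP5, an ERK phosphatase, at 1.21, with 188.8, 3318.8 and 1958.1. PRG2, the eosinophil major basic protein, was at 1.83, IFI44L at 1.88, XKR4 at 2.00, CGNL1 at 2.32, the metalloprotease gene ADAM8 at 2.45 and the interferon-induced gene SAMD9L at 2.46. Each was represented by 1 named probe. The order rests on 3 arrays and 2 changes that share the day 0 array.

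Between day 1 and day 3 the 10 genes parted. PRG2 fell by 2.12, SIRPA by 1.17 and PLEK by 1.04, while CGNL1 rose by 1.14. LAMP3 at -0.30, XKR4 at -0.18, SAMD9L at -0.45, ADAM8 at -0.60, DUSP5 at -0.79 and IFI44L at 0.99 did not pass the rule. CDKN1A, at -0.42, was among the flatter ones.

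**Figure D5:**
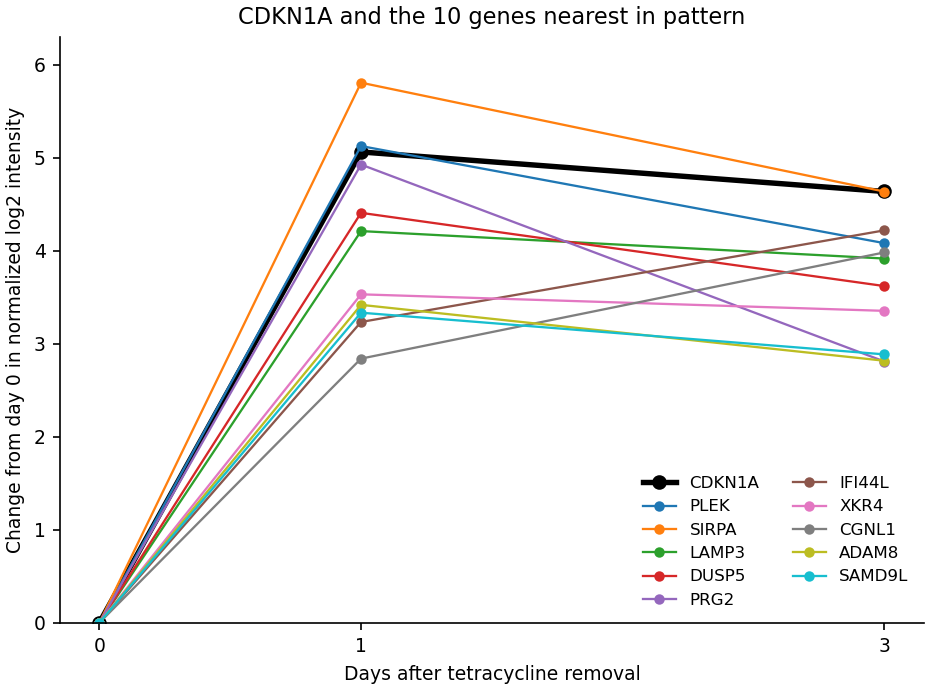
Change from day 0 in normalized log2 intensity (y axis) against days after tetracycline removal for CDKN1A (black) and the 10 genes nearest to it in pattern (colours), 1 array per day. CDKN1A stands at 5.06 and 4.64, with SIRPA at 5.81 and 4.64 and PLEK at 5.13 and 4.08, while IFI44L and CGNL1 are higher at day 3 than at day 1.

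Of the 10 genes on each side of CDKN1A in RefSeq order on chromosome 6, 10 had a named probe, 6 were detected at some time and 0 passed the rule in any comparison. Over all genes measured 17.2% passed at day 1, 7.08% at day 3 and 7.46% at day 3 against day 1, so 0 among 6 genes says little about the region. STK38, a kinase gene, showed the widest change of these 6, 0.94 log2 at day 1 and 0.08 at day 3, with intensities of 2064.5, 3417.5 and 1921.9. PPIL1 differed by -0.86 and -0.27, SRSF3, a splicing factor gene, by -0.49 and -0.06, and MTCH1 by 0.17 and -0.04. The noncoding genes PANDAR and DINOL, which lie beside CDKN1A, were not analysed here.

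The arrays had 10838, 11317 and 11272 probes above background at day 0, day 1 and day 3. Of 12 Hodgkin cell markers, JUNB was below background at 32.4, 33.9 and 30.7. The other 11 were measured, with TNFRSF8 (CD30) at 1209.5, 1200.2 and 732.1. Of these 3 (27.3%, beside 9.19% of all genes) rose at day 1 and 5 (45.5%, beside 4.95%) at day 3, CD40, CCL22 and CD83 on each day and CCL17 and TRAF1 at day 3. The TRAF1 call ended with arrays scaled to their 75th percentile and in the authors' deposited table, at 0.86 to 0.88. Markers of T and NK cells and of stroma and epithelium were near background. In each list of 10, 1 gene was measured (NCAM1 at 64.7 and COL1A1 at 67.0, both at day 1), and 0 passed the rule. Housekeeping genes had medians of -0.04 at day 1 and -0.12 at day 3 over 10 measured, but HPRT1 stood at 558.6 at day 1, against 1390.2 at day 0, and fell by 1.14.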

How the data were processed

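The members and gene lists were chosen with earlier results of these data known. Bead intensities and detection p-values were deposited by the authors as a non-normalized table, per the file headers, and the submitters' processing notes name BeadStudio 3.3.7. The authors' deposited log2 table equalled, to within 1e-04, log2 intensity minus the array's 75th percentile, centred on each probe's median, so it holds differences and no levels. Its scale, centring and direction are known from that comparison.

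Intensities were corrected with the normexp model of limma 3.58.1 (R 4.3.3), with background taken from the detection p-values and an offset of 16, then quantile normalized and log2 transformed. The background means were 33.2, 32.5 and 33.0 at day 0, day 1 and day 3. The offset pulls changes of dim probes toward 0. Probes were named from the platform annotation, updated through RefSeq (GRCh38.p14): 24089 by gene ID, 50 by accession, 164 kept as given and 24398 unnamed. The brightest probe stood for a gene. Above background means a detection p-value under 0.01. A gene above background on only 1 of 2 arrays was called if its bound also reached 2-fold. Some genes and 2 gene lists are not reported here. The calling was tested on simulated data. Genes were named by a fixed rule: SPI1, MYC, PCNA, the CDK inhibitors, up to 4 called genes of each list by size at day 3, the 10 nearest in pattern, those beside CDKN1A in the order of changes, and the 2 chromosomal neighbours that changed most. RB1, RBL2, CCNB1, CCND3, CDK1, CDK2, CDK4, CDK6, SP1, STAT5B, VDR, RARA, RXRA, MCM5, CENPE, LMNB1, TNFRSF8, TRAF1, JUNB, BCL6, IRF1, MUC1, ARHGAP9, SRSF3 and MTCH1 were named outside it, after their values were seen. Alternatives changed the background correction, offset, scaling, detection threshold, probe rule and source of values. The number of arrays limits the precision. Python 3.11.15, pandas 2.3.3, numpy 2.4.6 and matplotlib 3.10.9 were used.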

Additional observations from a re-analysis of the deposited data

How the results depend on the processing

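Of 9 alternatives for CDKN1A, 3 (both detection thresholds and the mean of detected probes) could not move its value, since its 1 detected probe had a detection p-value of 0. In the 5 that could and that used this probe, the change ranged from 4.82 to 4.97 log2 at day 1 and from 4.42 to 4.53 at day 3. With the mean of its 2 probes, chosen after seeing the data, it was 2.62 and 2.35, because the dimmer probe was below background. Arrays scaled to their 75th percentile moved the median over detected genes from -0.09 to -0.18 log2 at day 1 and from -0.08 to -0.20 at day 3. Less that median, CDKN1A differed by 5.15 at day 1 with either scaling, and by 4.72 at day 3 with the quantile scaling and 4.74 with the other. The share of rises among called genes was 53.5% at day 1 and 69.9% at day 3, 42.0% and 50.7% with that scaling, and 42.9% and 54.9% in the authors' deposited table. The count of genes called at day 3 against day 1 was 695, and 463 with an offset of 50. DREAM targets lay below the median of all genes at day 1 and day 3 in each of these 3 settings, by 0.15 to 0.25 log2. Of 109 calls of other genes examined, 87 held in all alternatives, 22 ended in at least 1 and 0 reversed. Of the 10 genes nearest in pattern, 9 were shared with those in the authors' deposited table and 9 with those by distance over centred values. No paired analysis was possible because each day has 1 array, and for the same reason no replicate could be left out.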
